A study of Mus musculus with 8 samples.

Results

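Somatostatin (Sst) interneurons of the mouse cortex were selected on the raw UMIs, that is the counted RNA molecules, of 8 genes in single-nucleus RNA sequencing (snRNA-seq). A nucleus was taken as an Sst nucleus if it held at least 3 UMIs of *Gad1* and *Gad2* together, at least 3 of *Sst*, at most 1 each of *Slc17a7*, Pvalb, *Vip* and *Lamp5*, and 0 of *Rgs9*. The rule found 885 Sst nuclei among 54343 nuclei with 200 to 6000 genes, more than 1000 UMIs and less than 10% of UMIs from mitochondrially encoded genes. Nuclei came from the snap-frozen cortex of naive mice of the C57BL6J strain at 6 weeks of age, with 4 wild-type mice (Wt; *Ifnar1+/+*, and *Ifnb+/+* per the methods of the study) and 4 *Ifnar1-/-* mice, and 2 females (F1, F2) and 2 males (M1, M2) in each genotype. *Ifnar1* encodes a subunit of the receptor for type-I interferons, and in the *Ifnar1-/-* mice it was lost from the whole body, not from one cell type. The *Ifnar1-/-* line had been backcrossed onto the C57BL/6J background. Each mouse gave 1 library, and values of a genotype are listed below in the order F1, F2, M1, M2.

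Sst interneurons are GABA-releasing cells that arise in the medial ganglionic eminence, the embryonic source they share with Pvalb interneurons. Vip and Lamp5 interneurons come mostly from the caudal ganglionic eminence. Many Sst interneurons are Martinotti cells, which send axons to the upper layers and inhibit the distal dendrites of pyramidal neurons, and a rarer kind that makes *Chodl* and *Nos1* projects over long distances.

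The Wt libraries held 114, 81, 108 and 142 Sst nuclei and the *Ifnar1-/-* libraries 69, 103, 153 and 115. Their UMIs summed to between 744555 and 1287045 in Wt and between 419147 and 1283007 in *Ifnar1-/-* libraries, with the lowest sum in *Ifnar1-/-* F1. A nucleus held a median of 8534 UMIs and 3450 genes. The median by library ran from 6646.5 to 10869.5 UMIs in Wt and from 5598 to 12289 in *Ifnar1-/-* mice. No cell barcode of an Sst nucleus occurred in more than 1 library's Sst nuclei (0 shared). Scrublet called 20 of the 885 nuclei doublets, and these were kept.

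Markers that the rule did not use were read to check the label. *Sox6*, a transcription factor of medial ganglionic eminence interneurons, had at least 1 UMI in 86.2% of Sst nuclei, against 97.0% of Pvalb, 6.93% of Vip and 7.14% of Lamp5 nuclei, each class gated in the same way on its own gene. *Lhx6*, which specifies the same lineage, was found in 41.5% of Sst, 45.5% of Pvalb, 0.602% of Vip and 6.02% of Lamp5 nuclei. *Sox6* and *Lhx6* placed Sst with Pvalb nuclei and apart from the other classes. *Satb1* was found in 78.3% of Sst, 83.8% of Pvalb, 16.3% of Vip and 6.02% of Lamp5 nuclei. *Nxph1* was found in 93.7% of Sst, 98.0% of Pvalb, 14.5% of Vip and 92.5% of Lamp5 nuclei. It thus did not set Sst apart from Lamp5 nuclei. *Grin3a*, an NMDA receptor subunit, was found in 81.9% of Sst nuclei, against 8.08% of Pvalb, 32.2% of Vip and 44.0% of Lamp5 nuclei. *Elfn1*, which shapes the synapses that Sst interneurons receive, was found in 63.6% of Sst, 6.06% of Pvalb, 63.0% of Vip and 4.14% of Lamp5 nuclei, and so did not set Sst apart from Vip nuclei. *Adarb2*, a marker of caudal ganglionic eminence interneurons, was found in 20.7% of Sst nuclei, against 10.1% of Pvalb, 99.1% of Vip and 97.7% of Lamp5 nuclei. *Prox1*, also a caudal gene, was found in 2.60% of Sst, 2.02% of Pvalb, 75% of Vip and 50.8% of Lamp5 nuclei. The caudal gene *Npas1* went the other way. It was found in 21.1% of Sst, 38.9% of Vip and 3.01% of Lamp5 nuclei, while Pvalb nuclei held 1 UMI of it. *Npas1* thus did not place Sst with Pvalb nuclei. The median nucleus held 8534 UMIs in the Sst class, 10846 in the Pvalb class, 5777 in the Vip class and 7084.5 in the Lamp5 class.

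*Sst* itself chose the nuclei, so its level is given without a test. The median Sst nucleus held 36 *Sst* UMIs, with quartiles of 13 and 72 and a highest value of 460. By library the median was 38, 26, 24.5 and 44 in Wt and 27, 50, 55 and 31 in *Ifnar1-/-* mice. Summed over Sst nuclei, *Sst* reached 4448, 5126, 4018 and 7641 CPM (counts scaled to the same total in every library) in Wt and 5337, 5164, 9254 and 4693 CPM in *Ifnar1-/-* libraries, and the genotypes overlapped. *Gad1* and *Gad2*, the enzymes that make GABA, stood at 193 to 213 and 282 to 349 CPM in Wt and at 204 to 274 and 321 to 464 CPM in *Ifnar1-/-* libraries. Of the genes the rule kept low, *Slc17a7* lay between 8.87 and 27.7 CPM over the 8 libraries, *Pvalb* between 2.42 and 11.3, *Vip* between 1.46 and 7.24 and *Lamp5* between 2.42 and 8.57.

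At least 1 *Sst* UMI was also found in 19.6% of glutamatergic nuclei (median depth 10352 UMIs) and 14.0% of oligodendrocyte nuclei (2082 UMIs), which should lack the gene, and at least 3 in 1.12% and 0.929%. Just inside the limit, 39 nuclei held exactly 3 *Sst* UMIs, and 84 nuclei just outside it held 2 and met every other condition. *Sox6* was present in 76.9% of the former and 50% of the latter, *Grin3a* in 38.5% and 33.3%, *Elfn1* in 12.8% and 22.6%, and *Adarb2* in 46.2% and 46.4%. Among the 128 nuclei with at least 100 *Sst* UMIs the shares were 93.8%, 96.1%, 79.7% and 14.1%. Nuclei nearest the limit thus had lower shares of *Sox6*, *Grin3a* and *Elfn1*, and a higher share of *Adarb2*, than those with most *Sst* UMIs. The *Rgs9* condition, which keeps out striatal neurons, alone kept out 392 nuclei.

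**Figure D1:**
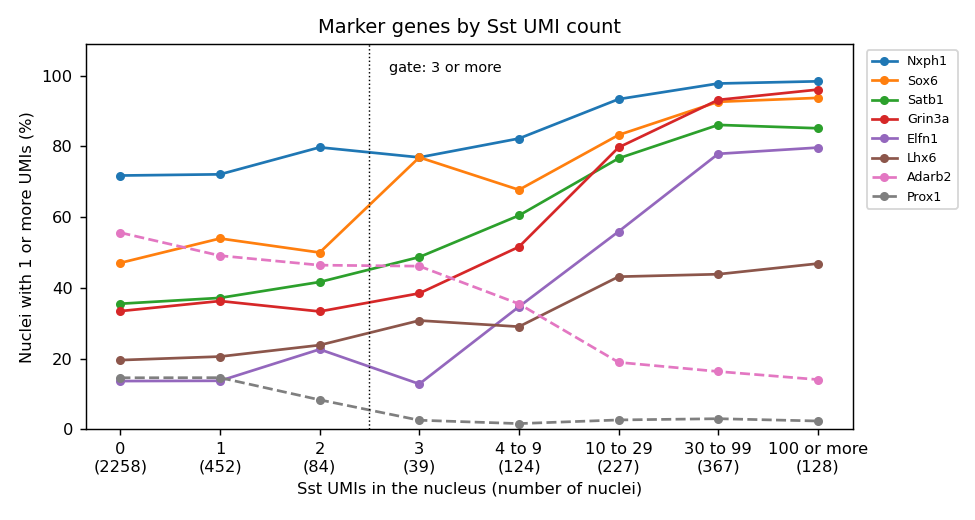
Percent of nuclei with at least 1 UMI of each marker (vertical axis) by the number of *Sst* UMIs in the nucleus (horizontal axis), for nuclei that met every other condition of the rule, with the number of nuclei in parentheses and the limit of the rule as a dotted line. *Sox6* goes from 76.9% at 3 *Sst* UMIs to 93.8% at 100 or more, and *Adarb2* from 46.2% to 14.1%.

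The sequence just upstream of the *Sst* gene is shown because it holds the cAMP response element, the site through which CREB is known to drive this gene. It is the 250 bases before the RefSeq start site, on the minus strand of GRCm38.p6 at chr16:23890845-23891094, with the element TGACGTCA in capitals.

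Sst: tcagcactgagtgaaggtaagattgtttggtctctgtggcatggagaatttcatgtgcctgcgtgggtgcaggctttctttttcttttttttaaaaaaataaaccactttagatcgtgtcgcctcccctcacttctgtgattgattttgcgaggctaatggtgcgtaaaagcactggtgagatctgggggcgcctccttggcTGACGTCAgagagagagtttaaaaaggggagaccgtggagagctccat

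The first base of the element lies 48 bases before the start site. TGACGTCA, which reads the same on both strands, occurs in the same window of 508 of 32851 promoters in the RefSeq table (1.55%). By likeness of pattern over 39 class sums of the 4 interneuron classes and glutamatergic nuclei, on log2 CPM with a pseudocount of 1, the genes nearest to *Sst* were *Pdyn* (Pearson r 0.94), *Hpse* (0.88), *Chodl* (0.88), *Gm15866* (0.85) and *Tmcc3* (0.85). These sums share libraries and classes, and the values are descriptions. The rule itself set *Sst* high in Sst nuclei and low in the other interneuron classes. A high r thus marks genes scarce outside Sst nuclei, also where few Sst nuclei hold them. At 2 or more UMIs, *Pdyn* was found in 7.68%, *Hpse* in 4.63% and *Chodl* in 4.18% of Sst nuclei. The promoter windows of the 5 genes nearest to *Sst* by r held no TGACGTCA.

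The first question was whether mice without *Ifnar1* held a different share of Sst interneurons. Sst nuclei made up 2.08%, 1.36%, 1.13% and 2.22% of the nuclei kept in Wt and 0.798%, 2.34%, 2.06% and 1.78% in *Ifnar1-/-* mice. The lowest and the highest share both came from *Ifnar1-/-* females. Means were 1.70% ± 0.536 and 1.75% ± 0.672 (SD, n = 4 each), a difference of 0.049 percentage points (two-sided exact permutation test over libraries, p = 0.943; the smallest p this design allows is 0.0286). Among GABA nuclei, defined by the *Gad1*, *Gad2* and *Slc17a7* conditions alone, the share was 13.8%, 13.5%, 11.7% and 17.1% in Wt and 11.6%, 13.3%, 15.4% and 16.4% in *Ifnar1-/-* mice. These 6241 GABA nuclei met no *Rgs9* condition and can include striatal neurons, so the share is not one of cortical interneurons. The part of striatal neurons in it was not tested. The genotypes overlapped again, with means of 14.0% ± 2.25 and 14.2% ± 2.15 (exact permutation p = 1). Within females the difference in this share was -1.19 points and within males 1.50 points, and no test was run within a sex.

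**Figure D2:**
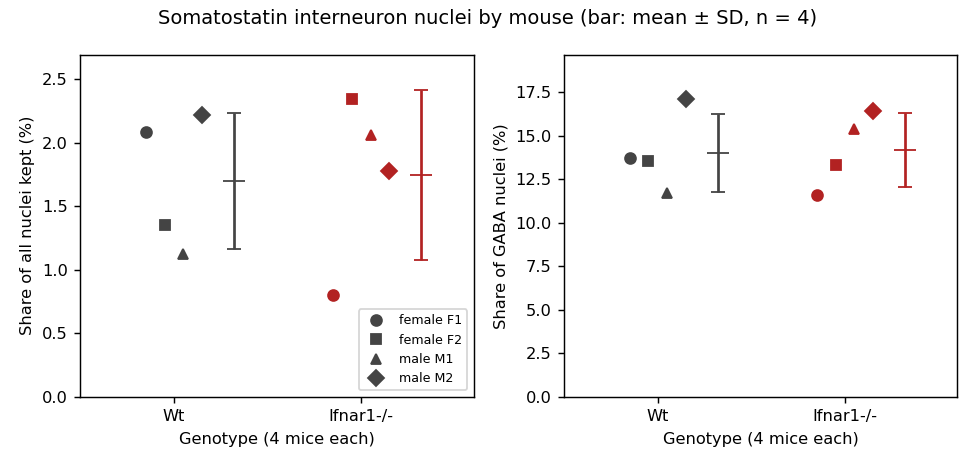
Sst nuclei as a percent of nuclei kept and of GABA nuclei, one point per library with the mean and SD of each genotype (n = 4). The genotypes overlap in both panels, with means of 1.70% and 1.75% of nuclei kept.

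Genes of known Sst subsets divided the nuclei. A nucleus was counted for a gene at 2 or more UMIs, and beside each share stands that of glutamatergic nuclei at a median depth of 10352 UMIs, against 8534 in Sst nuclei. *Npy*, a neuropeptide, was found in 497 Sst nuclei (56.2%; 1.64% of glutamatergic nuclei) and *Calb1*, a calcium-binding protein, in 205 (23.2%; 4.14%). *Tac1*, the precursor of substance P, was found in 91 nuclei (10.3%; 0.610%), *Nos1*, the neuronal nitric oxide synthase, in 74 (8.36%; 1.74%), *Pdyn*, the precursor of dynorphins, in 68 (7.68%; 0.0959%) and *Tacr1*, the substance P receptor, in 61 (6.89%; 0.601%). *Hpse*, a heparanase, was found in 41 (4.63%; 0.0261%) and *Chodl*, a membrane protein, in 37 (4.18%; 0.0174%). *Nr2f2* was found in 5.31%, *Cbln4* in 4.52%, *Mme* in 4.29%, *Penk* in 3.62%, *Nts* in 3.05%, *Crh* in 2.60% and *Crhr2* in 2.37% of Sst nuclei, against 2.32%, 0.802%, 0.235%, 0.514%, 0.505%, 0.0959% and 0.0349% of glutamatergic nuclei. *Etv1* was found in 6.10% of Sst nuclei but 17.7% of glutamatergic nuclei, and *Rxfp1* in 1.69% and 9.95%, so neither gene set Sst nuclei apart. At the low end, *Calb2* was found in 1.02%, *Tac2* in 0.791%, *Th* in 0.565% and *Esm1* in 0.452% of nuclei. *Myh8* had 2 or more UMIs in 0 of 885 nuclei, which allows a share at that cut of up to 0.339%, and 1 or more in 0.565%; neither value limits the share of nuclei that express it. The shares depend on depth: with nuclei thinned to 3000 UMIs, *Npy* was found in 39.0%, *Tac1* in 5.90%, *Calb1* in 7.26%, *Nos1* in 6.13%, *Chodl* in 1.82%, *Hpse* in 1.14%, *Mme* in 0.568% and *Cbln4* in 0.227%.

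The 37 *Chodl* nuclei shared further genes. All 37 carried *Npy*, 33 carried *Nos1* (89.2%, against 4.83% of the other Sst nuclei) and 28 carried *Tacr1* (75.7% against 3.89%). *Crhbp*, a protein that binds corticotropin-releasing hormone, was found in 83.8% of them and 29.4% of the others. Conversely, *Reln*, a secreted glycoprotein, was found in 5.41% of *Chodl* nuclei and 51.8% of the others, and *Elfn1* in 16.2% and 46.9%. Of the *Chodl* nuclei, 0 of 37 held 2 or more UMIs of *Hpse*, *Pdyn*, *Tac1* or *Nts*. That count allows a share with 2 or more UMIs of up to 8.11% for each and, since detection falls with depth, does not limit the share that expresses the gene.

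Other combinations also recurred. Of the 41 *Hpse* nuclei, 22 carried *Pdyn* (53.7%, against 5.45% of the rest), and all 41 carried *Reln* and *Grin3a*. Of the 68 *Pdyn* nuclei, 91.2% carried *Reln* and 79.4% *Elfn1*, against 46.4% and 42.8% of the rest, and 0 were counted for *Tac1*, which allows up to 4.41% at the cut of 2 UMIs and no limit on expression. The 91 *Tac1* nuclei were low in the same genes, with *Reln* in 12.1%, *Grin3a* in 33.0% and *Elfn1* in 13.2%, against 54.2%, 80.1% and 49.4% of the rest. *Calb1* nuclei carried *Elfn1* in 65.9% and *Etv1* in 13.7%, against 39.6% and 3.82%. Of the 6 genes *Chodl*, *Hpse*, *Calb2*, *Tac1*, *Calb1* and *Pdyn*, 499 nuclei held none, 322 held 1, 63 held 2 and 1 held 3. All these shares are of nuclei pooled over libraries and are descriptions, since nuclei of 1 mouse are not replicates.

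No subset share differed between the genotypes past the threshold. Of 22 subset genes, 0 passed at an adjusted p under 0.05 and 0 at an unadjusted p under 0.05 (two-sided exact permutation tests over libraries, Benjamini-Hochberg; smallest p 0.2, smallest adjusted p 0.924). *Npy* nuclei made up 52.6%, 53.1%, 50.0% and 61.3% of Sst nuclei in Wt and 46.4%, 49.5%, 66.0% and 60.0% in *Ifnar1-/-* mice. *Chodl* nuclei numbered 4, 1, 4 and 10 in Wt and 3, 5, 6 and 4 in *Ifnar1-/-* mice. *Calb1* nuclei made up 27.2%, 23.5%, 19.4% and 19.7% in Wt and 13.0%, 26.2%, 26.8% and 25.2% in *Ifnar1-/-* mice, with *Ifnar1-/-* F1 below all other libraries. That library also had the lowest median depth (5598 UMIs per Sst nucleus). *Hpse* ran from 1.75% to 9.88% in Wt and from 1.94% to 7.83% in *Ifnar1-/-* mice, so single libraries with few such nuclei spread widely.

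**Figure D3:**
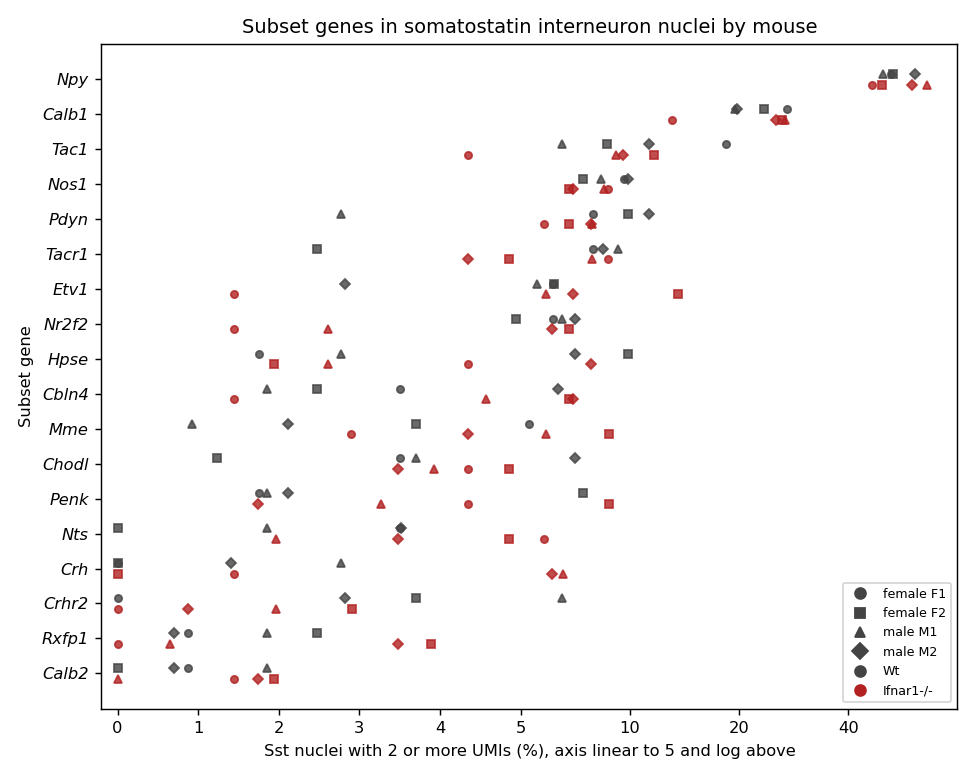
Percent of Sst nuclei with at least 2 UMIs of each subset gene, one point per library in the colour of its genotype and the shape of its replicate number, for genes found in at least 1% of Sst nuclei; the horizontal axis is linear to 5% and logarithmic above. *Npy* (56.2% over all nuclei) and *Calb1* (23.2%) lead, and Wt and *Ifnar1-/-* libraries overlap.

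Next, the UMIs of Sst nuclei were summed per library and compared between the genotypes. *Ifnar1* itself stood at 15.1, 7.30, 20.1 and 17.7 CPM in Wt and 13.0, 19.3, 14.0 and 13.4 CPM in *Ifnar1-/-* libraries, with a log2 fold change of -0.010 (*Ifnar1-/-* over Wt; SE 0.31). Since 3' counts can lie outside the deleted stretch, whose position was not given in the sources used here, these values do not check the labels. Of 10204 genes tested, 3 passed (0.0294%; edgeR quasi-likelihood test, adjusted p under 0.05), 2 higher and 1 lower in *Ifnar1-/-* mice, and 178 had an unadjusted p under 0.05. That is less than the share of 0.05 expected if no gene differed. The fit had no term for sex, so differences between the sexes counted as spread within a genotype. With sex as a term, 352 genes had an unadjusted p under 0.05 and 5 passed (edgeR quasi-likelihood test). The gene lists below are read from the fit without sex.

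*Gm43713*, an annotated antisense transcript, rose from 103, 96.4, 82.9 and 60.3 CPM in Wt to 336, 303, 257 and 304 CPM in *Ifnar1-/-* libraries. Every *Ifnar1-/-* library stood above every Wt library, and the log2 fold change was 1.80 (SE 0.17; adjusted p = 0.00233, edgeR quasi-likelihood test, Benjamini-Hochberg). *Gon4l*, which encodes a nuclear transcriptional regulator, rose from 107, 97.9, 124 and 99.8 CPM to 219, 242, 252 and 225 CPM, again without overlap, by 1.13 on the log2 scale (SE 0.13; adjusted p = 0.00661, edgeR quasi-likelihood test). *Gm43713* (GRCm38 chr3:88845025-88900001, minus strand) lies inside *Gon4l* (chr3:88835231-88910103, plus strand), and since the strand of counting was not stated, reads of this pair cannot be told apart. Of 148 genes tested within 10 Mb of *Gon4l*, these 2 were the ones that passed.

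*Gm15446*, a protein-coding gene at chr5:109923400-109943936, fell from 31.0, 29.2, 26.4 and 34.6 CPM in Wt to 13.0, 7.25, 7.79 and 4.77 CPM in *Ifnar1-/-* libraries. The groups did not overlap, with means of 30.3 ± 3.45 and 8.21 ± 3.47 CPM (SD, n = 4 each) and a log2 fold change of -2.01 (SE 0.29; adjusted p = 0.0491, edgeR quasi-likelihood test). With the replicate number as a block its adjusted p was 0.0722 (edgeR quasi-likelihood test), and when single libraries were left out it ran from 0.0350, without *Ifnar1-/-* F1, to 0.292, without *Ifnar1-/-* F2, and passed only in the former case. Over all alternatives the log2 fold change of *Gm15446* lay between -2.26 and -1.83. Without Wt F1, *Gon4l* had an adjusted p of 0.0756 (edgeR quasi-likelihood test), and only *Gm43713* passed in every alternative. All 3 called genes came from a list of genes with genotype shifts in other cell classes of these data, of which 8 were tested. Their log2 fold changes in Sst minus Pvalb nuclei differed by -0.049 (SE 0.36) for *Gm43713*, 0.38 (SE 0.32) for *Gon4l* and -0.53 (SE 1.00) for *Gm15446*. The 3 calls are thus not shown to be particular to Sst nuclei.

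The genes of next smallest p did not pass. *Gm15965*, an antisense transcript on chromosome 16, stood at 44.6, 54.0, 49.0 and 64.4 CPM in Wt and 26.1, 24.2, 21.8 and 21.9 CPM in *Ifnar1-/-* libraries (log2 fold change -1.19; adjusted p = 0.119, edgeR quasi-likelihood test). Its midpoint lies 0.511 Mb from that of *Ifnar1*. Of 53 genes tested within 10 Mb of *Ifnar1*, 0 passed. *Prss48*, a serine protease gene on chromosome 3, stood at 14.3, 21.9, 41.4 and 30.6 CPM in Wt and 2.61, 4.84, 0.779 and 6.68 CPM in *Ifnar1-/-* libraries (-2.77; adjusted p = 0.265, edgeR quasi-likelihood test). Its midpoint lies 2.87 Mb from that of *Gon4l*, inside the window of 10 Mb given above. The part of these positions in the values was not tested. *Gm26848*, a long noncoding RNA, had 875 to 1078 CPM in Wt and 1354 to 1478 CPM in *Ifnar1-/-* libraries (0.54; adjusted p = 0.738, edgeR quasi-likelihood test). Log2 fold changes were -0.61 for *Ap2b1*, an adaptor of clathrin coats, -1.11 for *A930029G22Rik*, -0.93 for *Gm47371* and -0.48 for *Leng8*. The libraries of the genotypes did not overlap for any of these 7 genes, as for 174 of all genes tested (1.71%). With genotype labels assigned at random, a share of 0.0286 would be expected.

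**Figure D4:**
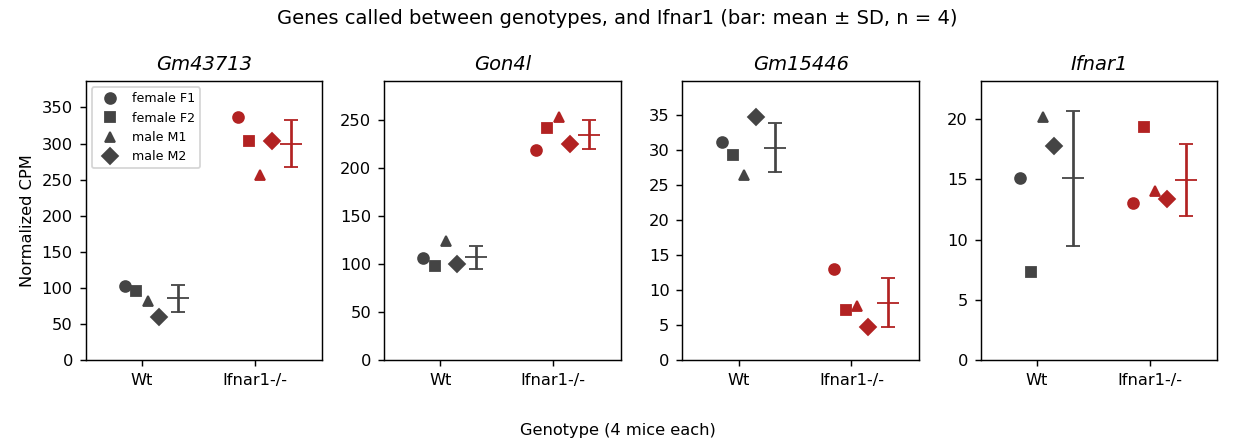
CPM of genes named for the genotype comparison in Sst nuclei, one point per library with the mean and SD of each genotype (n = 4). *Gm43713* and *Gon4l* lie higher and *Gm15446* lower in all 4 *Ifnar1-/-* libraries, while *Ifnar1* overlaps.

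The genes that define Sst interneurons showed no call between genotypes. Of 14 tested genes of the class, 10 had a positive and 4 a negative log2 fold change, with a median of 0.057 beside 0.0063 over all genes tested. *Sox6* stood at 848, 853, 747 and 717 CPM in Wt and 1089, 823, 685 and 776 CPM in *Ifnar1-/-* libraries, and *Grin3a* at 731, 795, 751 and 667 and at 904, 705, 717 and 773 CPM. *Elfn1* lay between 187 and 260 CPM in Wt and between 232 and 263 CPM in *Ifnar1-/-* libraries, *Lhx6* between 45.2 and 100.3 and between 59.9 and 72.5 CPM, and *Reln* between 424 and 587 and between 486 and 586 CPM. Within each of these genes the genotypes overlapped. Of 7 tested genes of the Pvalb class 3 were positive (median -0.030) and of 4 of the caudal classes 1 (median -0.026), with 0 calls; *Syt2* had the log2 fold change farthest from 0 (-1.02, SE 0.49), which was -0.34 without Wt F1.

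Of 17 tested subset genes, 10 were positive and 0 passed, with a median of 0.024. *Npy* stood at 741, 652, 1004 and 2209 CPM in Wt and 844, 931, 2169 and 732 CPM in *Ifnar1-/-* libraries, a spread within each genotype that exceeded the difference between them. *Calb1* stood at 112, 107, 90.4 and 102 CPM and at 120, 91.1, 122 and 104 CPM. *Nos1* stood at 78.0, 84.7, 91.7 and 94.1 CPM and at 159, 105, 90.4 and 96.3 CPM, and *Chodl* at 13.5, 10.2, 23.9 and 26.6 CPM and at 26.1, 16.1, 18.7 and 12.4 CPM. *Nts*, the precursor of neurotensin, had the log2 fold change farthest from 0 among them (0.81), at 11.9, 0, 11.3 and 46.7 CPM in Wt and 86.0, 28.2, 7.79 and 33.4 CPM in *Ifnar1-/-* libraries.

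Genes of the type-I interferon pathway were next. Of 7 tested genes of the receptor and its signalling chain, 3 were positive and 0 passed, with log2 fold changes of -0.52 (SE 0.33) for *Ifnar2*, the other receptor subunit, and 0.50 (SE 0.49) for *Irf9*, a part of the transcription factor complex that the receptor activates. Of 58 interferon-stimulated genes listed, 56 were in the files, 9 had no UMI in Sst nuclei of any library, and 9 reached the filter on low counts. Of these 9 genes, 4 were positive and 0 passed (median -0.032), with 0.39 (SE 0.40) for *Trim30a* and -0.33 (SE 0.33) for *Rtp4*. Summed over the list, the 56 genes made up 402 to 455 CPM in Wt and 372 to 486 in *Ifnar1-/-* libraries. *Adar* (495 UMIs in Wt and 528 in *Ifnar1-/-* libraries) and *Pnpt1* (440 and 411) had the highest counts. *Isg15* had 5 and 4. The sum therefore says little about the sparser genes of the list. At this depth most of these genes were too sparse in Sst nuclei for a difference to be detectable.

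Genes of GABA handling and peptide release gave 0 calls. Of 7 tested genes for GABA synthesis and transport, 6 were positive (median 0.11), and of 13 genes for peptide processing and release, 11 were positive (median 0.063). *Scg2*, a granin of dense-core vesicles, had a log2 fold change of 0.36 (SE 0.20), *Cadps2*, which primes those vesicles, 0.30 (SE 0.40) and *Pcsk1*, a prohormone convertase, 0.29 (SE 0.29). *Sstr1* was the one somatostatin receptor that reached the filter (-0.34, SE 0.47).

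Receptors, channels and adhesion molecules gave 0 calls each. Of 20 glutamate receptor subunits 14 were positive (median 0.076), of 14 GABA receptor subunits 8 (median 0.0048), of 14 receptors for modulators 8 (median 0.065), of 25 ion channel genes 16 (median 0.041) and of 22 adhesion genes 16 (median 0.065). *Kcna2*, an axonal potassium channel, ranged from 49.3 to 62.8 CPM in Wt and from 67.8 to 90.4 CPM in *Ifnar1-/-* libraries, without overlap (log2 fold change 0.41, SE 0.16). *Chrm2*, a muscarinic acetylcholine receptor, had means of 143 ± 20.4 and 197 ± 35.6 CPM (SD, n = 4 each; 0.44, SE 0.16), and *Cdh18*, a cadherin, had 0.52 (SE 0.23). None of these passed after adjustment over all genes.

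Mitochondrial function was a theme of the study, and the genes encoded in the mitochondrion itself are given first. Of 12 tested, 11 were positive and 0 passed, with a median log2 fold change of 0.47 beside 0.0063 over all genes, and 0.85 (SE 0.51) for *mt-Atp8*, 0.72 (SE 0.41) for *mt-Nd4l* and 0.59 (SE 0.42) for *mt-Atp6*. Their share of UMIs in Sst nuclei was 0.269%, 0.415%, 0.469% and 0.667% in Wt and 0.499%, 0.236%, 0.682% and 1.04% in *Ifnar1-/-* mice. The libraries overlapped, and the means of 0.455% ± 0.164 and 0.614% ± 0.337 (SD, n = 4 each) differed by 0.159 points (two-sided exact permutation test, p = 0.429). With single libraries left out this difference ran from 0.0174, without *Ifnar1-/-* M2, to 0.285, without *Ifnar1-/-* F2, and the log2 fold change of *mt-Atp6* from 0.041 to 0.88. Within each genotype both males lay above both females. Over all nuclei kept, the mean share was 0.401% in Wt and 0.530% in *Ifnar1-/-* mice. Nuclear genes of oxidative phosphorylation had a median of 0.030, with 39 of 72 positive and 0 called; *Ndufb6*, a complex I subunit, had 0.98 (SE 0.37).

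RNA of other cell types was present in Sst nuclei, with ranges that overlapped between the genotypes. Markers of oligodendrocytes summed to 143 to 231 CPM in Wt and 73.3 to 314 CPM in *Ifnar1-/-* libraries, of microglia to 102 to 149 and 120 to 191, of glutamatergic neurons to 26.4 to 69.7 and 43.6 to 85.7, and of striatal neurons to 817 to 1043 and 702 to 1058. Most of the striatal sum was *Pde10a*, with means of 949.8 and 912 CPM after the scaling used in the test, while *Drd1*, a defining striatal marker, had 9.10 and 9.79 CPM on that scale. Markers of astrocytes summed to 33.4 to 56.8 and 40.5 to 125 CPM, those of oligodendrocyte precursors to 4.91 to 16.1 and 14.0 to 35.8 CPM, and those of vascular cells to 0 to 5.73 and 4.66 to 11.9 CPM, with 1 of 4 vascular markers at 0 in every library. The part of this RNA in the values above was not tested.

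Sst nuclei were then set against the other interneuron classes, gated on their own gene, with the library as a term of the fit. Pvalb nuclei numbered 99, in 7 of the 8 libraries and 0 in *Ifnar1-/-* F1, Vip nuclei 332 and Lamp5 nuclei 266. The 3 comparisons use the same Sst sums and are not independent. Of 6361 genes tested, 479 were at least 2-fold higher in Sst than in Pvalb nuclei (7.53%) and 231 lower (3.63%) at an adjusted p under 0.05. Against Vip nuclei 321 genes were higher (5.05%) and 314 lower (4.94%), and against Lamp5 nuclei 388 (6.10%) and 333 (5.24%).

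*Npy* led against Pvalb nuclei, at a mean of 1235 against 40.3 CPM (log2 fold change 5.95, SE 0.37). *Grin3a* had 806 against 22.04 CPM (5.50, SE 0.29), *Shisa6*, an AMPA receptor auxiliary protein, 358 against 8.20 CPM (5.23, SE 0.28) and *Elfn1* 252 against 9.66 CPM (5.13, SE 0.29). *Npas1* had a single UMI in Pvalb nuclei, which gives a ratio of 47.7 (95% exact interval 8.50 to 1889, counting error only). In the other direction *Syt2*, the fast synaptotagmin of Pvalb terminals, had 17.8 against 361 CPM (-4.34, SE 0.23), *Adamtsl5* 6.69 against 140.2 CPM (-4.22, SE 0.29) and *Cemip* 66.7 against 699 CPM (-3.38, SE 0.18), with *Pde5a* at -3.31 and *Tmem108* at -3.06. These 5 genes were lower in Sst nuclei in all 7 libraries.

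Against Vip nuclei the caudal lineage genes set the classes apart. *Prox1*, a homeobox factor of caudal interneurons, had 4.83 against 328 CPM (-6.01, SE 0.17), *Tac2*, the precursor of neurokinin B, 6.12 against 823 CPM (-6.80, SE 0.29) and *Egfr* 4.64 against 489 CPM (-6.50, SE 0.22), lower in 8 of 8 libraries each. *Htr3a*, a serotonin-gated channel, had 1 UMI in Sst and 183 in Vip nuclei, a ratio of Vip to Sst of 699 (95% exact interval 124 to 27741), and *Prox1os* had 3 and 168 (214; 71.9 to 1047). *Crhbp* had 220.2 against 3.67 CPM (5.95, SE 0.25). The other leading genes had 1 to 3 UMIs in Vip nuclei, with ratios of 181 (32.4 to 7160) for *9630002D21Rik*, 105 (29.1 to 871) for *Moxd1*, 74.9 (20.6 to 620.1) for *Lhx6* and 46.8 (15.9 to 228) for *Tmem132cos*.

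Against Lamp5 nuclei, *Crhbp* had 1663 UMIs against 1, a ratio of 421 (95% exact interval 75.4 to 16622), *9630002D21Rik* a ratio of 175 (31.3 to 6912), *Gm45025* of 79.9 (22.03 to 661) and *Lama4*, a laminin chain, of 79.7 (21.96 to 659). *Elfn1* had 252 against 6.41 CPM (5.36, SE 0.24). *Egfr* was lower in Sst nuclei (4.64 against 525 CPM; -6.61, SE 0.21), as were the phosphodiesterase *Pde11a* (11.1 against 689 CPM; -5.98, SE 0.18), *Frem1* (-5.93), *Gm3510* (-5.87) and *Egfros* (-5.79), in 8 of 8 libraries each. *Egfros* is an antisense partner of *Egfr*, and their reads cannot be told apart without strand.

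Genes named from here to the end of the class comparison were picked from the lists after their values were seen. Of 13 tested genes of the Sst class list, 8 were higher than in Pvalb, 10 than in Vip and 9 than in Lamp5 nuclei, and 0, 1 and 1 lower, with medians of 2.99, 2.43 and 2.35 beside 0.010, 0.014 and 0.0024 over all genes. *Sox6* had log2 fold changes of 0.09 against Pvalb nuclei, not called, and 4.57 and 5.27 against Vip and Lamp5 nuclei, and *Satb1*, a chromatin organiser, 0.46, not called, 3.15 and 5.23. Both factors were thus called against Vip and Lamp5 nuclei alone. *Reln* was higher than in Pvalb (3.53) and Vip nuclei (2.33) and lower than in Lamp5 nuclei (-1.61), *Synpr*, a synaptic vesicle protein, higher than in Pvalb (5.11) and Lamp5 (4.17) and lower than in Vip nuclei (-1.35), and *Cort*, the precursor of cortistatin, higher than in each (3.54, 2.33 and 2.05). *Npy* followed *Reln*, with 5.95, 1.49 and -1.14. Of 6 tested genes of the caudal classes, 6 were lower than in Vip nuclei and 5 lower and 1 higher than in Lamp5 nuclei, with *Adarb2* at -5.69 and -4.35, while 3 were higher and 0 lower than in Pvalb nuclei. Of 8 genes of the Pvalb class, 5 were lower and 0 higher than in Pvalb nuclei.

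**Figure D5:**
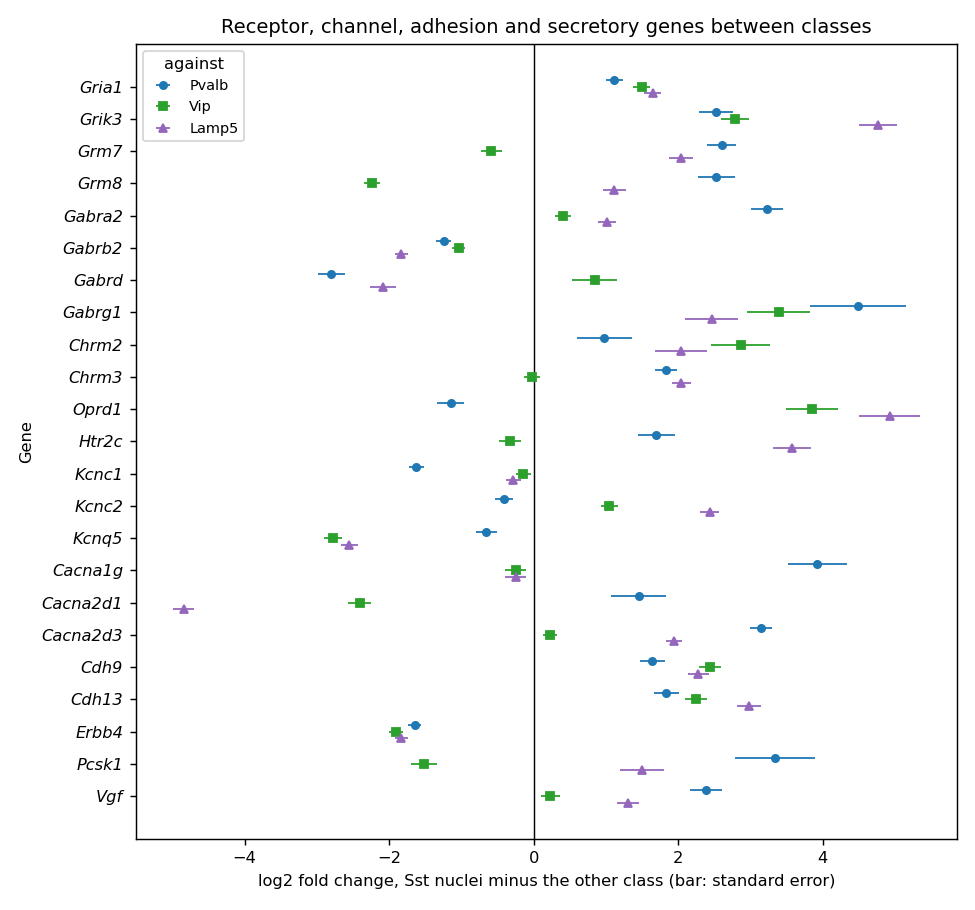
Log2 fold change of receptor, channel, adhesion and secretory genes in Sst nuclei against Pvalb (circles), Vip (squares) and Lamp5 nuclei (triangles), with bars of 1 SE; values above 0 are higher in Sst nuclei. *Grik3* lies above 0 against all 3 classes, *Gabrb2* and *Erbb4* lie below 0 against all 3, and *Cacna2d1* lies above 0 against Pvalb and below 0 against the other classes.

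Glutamate receptor genes were mostly higher in Sst nuclei where they were called. Of 19 tested, 7 were higher and 0 lower than in Pvalb nuclei (median 0.40), 7 and 2 against Vip nuclei (0.78) and 7 and 1 against Lamp5 nuclei (0.19). *Grik3*, a kainate receptor subunit, was higher against each class (2.52, 2.79 and 4.76), as was *Gria1*, an AMPA receptor subunit (1.12, 1.49 and 1.65). *Grm8* was higher than in Pvalb (2.53) and Lamp5 nuclei (1.12) and lower than in Vip nuclei (-2.24), and *Grin2a* was lower than in Lamp5 nuclei (-1.53).

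GABA receptor genes divided. Of 14 tested, 3 were higher and 5 lower than in Pvalb nuclei (median -0.74), 1 and 2 against Vip nuclei (-0.12) and 3 and 7 against Lamp5 nuclei (-0.97). *Gabrb2* (-1.25, -1.04 and -1.83), a subunit of the common synaptic receptor, was lower in Sst nuclei against each class. *Gabrd*, a subunit of extrasynaptic receptors, was lower than in Pvalb (-2.80) and Lamp5 nuclei (-2.08). *Gabrg1* was higher against Vip (3.39) and Lamp5 nuclei (2.47), and Pvalb nuclei held 2 UMIs of it (ratio 25.2; 95% exact interval 6.92 to 209).

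Receptors for modulators were called in both directions, 4 higher and 1 lower of 13 against Pvalb, 3 and 4 against Vip and 4 and 7 against Lamp5 nuclei. *Oprd1*, the delta opioid receptor, was higher than in Vip (3.85) and Lamp5 nuclei (4.93) and lower than in Pvalb nuclei (-1.15), and *Oprm1*, the mu receptor, higher than in Pvalb (2.64) and lower than in Lamp5 nuclei (-1.44). *Chrm2* was higher than in Vip (2.87) and Lamp5 nuclei (2.04). *Chrna7* was lower than in both (-1.82 and -2.59), as were *Adra1b* (-3.75 and -1.96) and *Npy1r*, a receptor for neuropeptide Y (-4.23 and -1.12).

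Among 24 ion channel genes, 5 were higher and 3 lower than in Pvalb nuclei, 2 and 2 against Vip and 4 and 2 against Lamp5 nuclei. *Kcnc1*, a Kv3 potassium channel of fast-spiking cells, was lower in Sst than in Pvalb nuclei (-1.63), and *Cacna1g*, a T-type calcium channel, higher (3.93). *Cacna2d1*, a calcium channel auxiliary subunit, was higher than in Pvalb (1.45) and lower than in Vip (-2.41) and Lamp5 nuclei (-4.85). *Kcnq5* was lower than in Vip (-2.78) and Lamp5 nuclei (-2.55).

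Adhesion genes were called higher against Lamp5 nuclei in 10 of 21 cases and lower in 0, against 4 and 1 for Pvalb and 4 and 3 for Vip nuclei. *Cdh13* (1.84, 2.25 and 2.98) and *Cdh9* (1.64, 2.44 and 2.28), both cadherins, were higher in Sst nuclei against each class. *Cntnap4* was lower than in Pvalb (-1.18) and higher than in Vip (1.20) and Lamp5 nuclei (1.07). For peptide release, 3 of 13 genes were higher than in Pvalb nuclei, 0 than in Vip and 3 than in Lamp5 nuclei, and 0, 3 and 0 lower. *Vgf*, the precursor of several peptides, was higher than in Pvalb (2.39) and Lamp5 nuclei (1.31), and *Pcsk2*, a convertase, higher than in Pvalb (1.62) and lower than in Vip nuclei (-1.18). Over the alternatives *Pcsk2* against Pvalb nuclei ran from 0.98 to 1.89, so it did not reach 2-fold in all of them. *Erbb4*, the neuregulin receptor, was lower in Sst nuclei against each class (-1.65, -1.91 and -1.83). Of 46 nuclear genes of oxidative phosphorylation and 11 mitochondrially encoded genes, 0 were called against any class. A call needed a 2-fold difference, and smaller shifts were present. Of the mitochondrially encoded genes, 11 were positive against Pvalb, 0 against Vip and 1 against Lamp5 nuclei (medians 0.50, -0.36 and -0.14). An unadjusted p under 0.05 (edgeR quasi-likelihood test) was found for 9, 11 and 2 of them. Of the nuclear genes, 5, 16 and 25 were positive (medians -0.33, -0.096 and 0.021), and 17, 10 and 3 were under that limit.

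Whether the genotype difference itself differed between Sst and Pvalb nuclei was tested over the 7 libraries with both classes. Of 8964 genes, 0 passed (0%; edgeR quasi-likelihood test) and 331 had an unadjusted p under 0.05, and DESeq2 gave 0 and 125. The Pvalb sums came from 14, 13, 5 and 26 nuclei in Wt and from 5, 30 and 6 in *Ifnar1-/-* F2, M1 and M2. With so few nuclei, the 0 calls do not show that the genotype difference was alike in both classes.

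The labels also gave 2 females and 2 males per genotype, and males and females were compared in Sst nuclei with the genotype as a term. Of 10204 genes, 645 were higher in males (6.32%) and 353 in females (3.46%; edgeR quasi-likelihood test, adjusted p under 0.05). *Vgf*, here picked with the following genes after their values were seen, stood at 78.8, 78.9, 83.4 and 81.4 CPM in females and 276, 421, 440.1 and 272 CPM in males (Wt first in each), and the sexes did not overlap (log2 fold change 2.14, SE 0.17). Male libraries were also higher in *Pcsk1n*, an inhibitor of prohormone convertases (2.63, SE 0.23), *Cck*, the precursor of cholecystokinin (2.47, SE 0.24), *Jund*, an AP-1 factor (4.12), *Ssbp4* (4.69), *Pdcd7* (3.14) and *Crebzf* (1.95). *Npy* was higher in males, with means of 792 against 1529 CPM (0.96, SE 0.27), and *Pcsk2* lower (-0.60, SE 0.16). The sexes overlapped for *Npy*, since *Ifnar1-/-* M2 lay below 3 of the 4 females. Both calls were lost without Wt F2, Wt M2, *Ifnar1-/-* F1 or *Ifnar1-/-* M1, that of *Npy* also without Wt F1 and that of *Pcsk2* also without *Ifnar1-/-* M2. Their adjusted p reached 0.209 for *Npy* and 0.114 for *Pcsk2* (edgeR quasi-likelihood test), both without *Ifnar1-/-* M1, and DESeq2 gave an adjusted p of 0.199 for *Npy*. Of 72 nuclear genes of oxidative phosphorylation 23 were higher and 1 lower (median 0.59), and of 12 mitochondrially encoded genes 7 were higher (median 0.86), while 1 of 14 Sst class genes and 1 of 17 subset genes were higher.

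The genes higher in males had a median length of 9.38 kb and those higher in females of 52.0 kb, against 34.1 kb over all genes tested. The mitochondrially encoded share moved the same way, and the part of either in the sex comparison was not tested. Sex cannot be told apart from any difference in preparation between the male and female libraries, and the count of called genes ran from 446 without Wt M2, 480 without *Ifnar1-/-* M1 and 630 without Wt F2 to 1449 without *Ifnar1-/-* M2.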

How the data were processed

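Nuclei were prepared from the cortex of 8 mice with 10x Genomics 3' chemistry, and the authors aligned reads to mm10 with Cell Ranger; Seurat 3.1.5 stands in the submitters' processing notes. The deposited values are raw UMI counts per gene and nucleus; library totals ran from 44063346 to 58423423 UMIs, and the strand setting is not given in the sources used here. Members and gene lists were chosen with earlier results of these data known.

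Glutamatergic nuclei had at least 3 *Slc17a7* UMIs and no *Gad1* or *Gad2*, and oligodendrocyte nuclei at least 5 UMIs of oligodendrocyte genes and none of the neuronal genes. UMIs were summed per library and class and tested with edgeR 4.0.16 (glmQLFit, TMM, filterByExpr, Benjamini-Hochberg, threshold 0.05) in R 4.3.3, with gate genes left out of class tests. Shares were compared by exact permutation over libraries (scipy 1.17.1). The fits were tested on simulated counts. Printed CPM use the TMM-scaled totals, except sums over lists, which use the raw totals of Sst nuclei. Doublets were called with Scrublet in scanpy 1.11.5 and kept. Coordinates are GENCODE M21 (GRCm38), which matched 30934 of 31053 gene IDs.

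Genes were named by rule: those called (up to 15) or, if fewer than 10, those of smallest p up to 10; *Ifnar1*, gate, class and subset genes; up to 3 of largest fold and 1 of highest level per list; 5 each way per class pair with a mean of at least 20 CPM; and the 5 most like Sst; a few of these genes are not reported here. Same-numbered libraries of the genotypes deviated together over 2000 genes (r = 0.438, 0.493, 0.541 and 0.331 for F1, F2, M1 and M2), but the same number means the same sex, and with sex removed r was -0.214 for the females and -0.423 for the males; a fit with the replicate number as a block was run as an alternative. Other alternatives were DESeq2 1.42.0, its size factors, no low-count filter, sex as a term, each library left out, doublets removed, higher limits on Sst or total UMIs, nuclei thinned to 3000 UMIs, and a Pvalb limit of 1 UMI, the last chosen after seeing the data.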

Additional observations from a re-analysis of the deposited data

Results flagged for a closer look

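In each genotype of 4 libraries, a library was set apart where its gap to the nearest other, divided by the range of the 4, exceeded the 95% critical value of Dixon's test. This held in 15 of 224 groups, and chance gives about 1 in 20 (11.2). The values that follow are this ratio with the library's value and the range of the other 3.

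*Ifnar1-/-* F1, the library with the fewest Sst nuclei, had the lowest share of *Calb1* nuclei (0.885; 13.0% against 25.2% to 26.8%) and the highest *Tacr1* (0.866; 78.2 against 33.5 to 39.5 CPM). This library also had the lowest median depth (5598 UMIs per Sst nucleus), and such shares depend on depth. Its *Calb1* CPM, given above, was not the lowest of its genotype. *Ifnar1-/-* M1 had the highest *Npy* (0.862; 2169 against 732 to 931 CPM), the highest lower quartile of *Sst* UMIs per nucleus (0.857; 19 against 12 to 13) and the only *Th* nuclei of its genotype (1; 1.31% against 0). *Ifnar1-/-* F2 had the lowest *Tac1* (0.842; 56.4 against 121 to 133 CPM) and the highest *Ifnar1* (0.843; 19.3 against 13.0 to 14.0 CPM) and *Cadps2* (0.853; 109.6 against 28.6 to 40.5 CPM). *Ifnar1-/-* M2 had the highest *Nr2f2* (0.893; 33.4 against 19.3 to 20.8 CPM).

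Among Wt libraries, F1 held all nuclei with *Tac2* (1; 1.75% against 0) and *Esm1* (1; 0.877% against 0) and the highest *Syt2* (0.866; 44.6 against 11.7 to 16.1 CPM). Over all libraries *Tac2*, *Esm1* and *Th* were counted in 7, 4 and 5 of 885 nuclei, so these flags rest on very few nuclei. The ratio is always 1 where the other libraries of the genotype stand at 0. Wt F2 had the highest share of *Penk* nuclei (0.937; 7.41% against 1.75% to 2.11%), Wt M1 the highest *Cadps2* (0.910; 64.0 against 36.5 to 39.0 CPM) and Wt M2 the highest *Cbln4* (0.886; 31.4 against 17.5 to 19.1 CPM).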

How the results depend on the processing

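The count of 3 genes called between genotypes was 6 in DESeq2, 7 with no filter on low counts, 5 with sex as a term and 2 with the replicate block, and ran from 1 (without Wt F1) to 3 with single libraries left out. *Gm43713*, *Gon4l* and *Gm15446* were among the calls of DESeq2, of the unfiltered fit and of the fit with sex. *Gm15965* and *Prss48* passed in those 3 fits, and *Gm26848* in DESeq2 alone. *Gm15446* did not pass with an Sst limit of 10 UMIs (adjusted p = 0.184, edgeR quasi-likelihood test) or above 4000 UMIs per nucleus (0.0582). The log2 fold change of *Ifnar1* ran from -0.20 to 0.12 with libraries left out and was 0.078 at the limit of 10 *Sst* UMIs; *Cadps2* ran from -0.40 to 0.52 and *Cacna1h* from -0.37 to 0.74, both negative without *Ifnar1-/-* F2. With libraries left out, the difference in the share of Sst nuclei ran from -0.150 to 0.365 points of nuclei kept and from -0.616 to 1.18 points of GABA nuclei; with nuclei thinned to 3000 UMIs the latter was 1.64 points (exact permutation p = 0.143). With no filter, calls against Pvalb, Vip and Lamp5 nuclei numbered 1385, 1278 and 1463, and with libraries left out 671 to 742, 613 to 677 and 697 to 775; a Pvalb limit of 1 UMI, chosen after seeing the data, gave 594, of which 499 were shared. Of the genotype difference between Sst and Pvalb nuclei, 1 gene passed with no filter and 0 to 7 with libraries left out (7 without *Ifnar1-/-* F2 and 7 without *Ifnar1-/-* M1, 1 each without Wt M2 and *Ifnar1-/-* M2). The sex count of 998 ran from 446 to 1449 with libraries left out, and was 672 in DESeq2, where *Npy*, *mt-Co3* and *mt-Atp6* did not pass (*Pcsk2* did), and 1458 with no filter. The replicate block changed no other call. The cause of these changes was not tested. Depth limits the interferon-stimulated genes, most of which did not reach the filter, and subset genes found in under 1% of Sst nuclei.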
